A study of Homo sapiens with 9 samples.

Results

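This section describes 9 genes of mitochondrial iron-sulfur cluster assembly in HEK293 Freestyle cells, an established line of human embryonic kidney origin grown in suspension, cultured with and without zinc. The genes ISCU, NFS1, LYRM4, HSCB, GLRX5, ISCA1, ISCA2, NFU1 and BOLA3 were selected by symbol from a table of 57766 genes, and all 9 were found, each in 1 row. After at least 18 h at 1000000 cells/mL the cells were washed and concentrated to 4000000 cells/mL, and 36 h of culture in 1 of 3 media followed. The full group received Freestyle medium as it is, the depleted group received medium from which Zn(II) had been removed, and for the repleted group Zn(II) was added back to depleted medium. Each group held 3 libraries, described by the labels as biological triplicates, and all 9 libraries came from the same line with no genetic change. The protocol also mentions a wash with 500 µM EDTA, a chelator of zinc and other metals, followed by PBS, and its wording does not settle whether the plates or a medium were washed. How the medium was depleted of zinc, and how much was returned, is not given in the sources used here.

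Iron-sulfur clusters are inorganic cofactors of iron and sulfide that carry electrons, hold substrates or stabilise folds in respiratory complexes, aconitase, lipoate synthase and many DNA-processing enzymes. In mitochondria the cysteine desulfurase NFS1, held in an active complex by the small protein LYRM4, supplies sulfur to the scaffold protein ISCU, on which a cluster is first built. The co-chaperone HSCB then recruits the chaperone HSPA9 to hand the cluster to the glutaredoxin GLRX5. ISCA1 and ISCA2 take part in building the larger clusters, and NFU1 and BOLA3 deliver these to particular recipients, lipoate synthase among them.

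BOLA3 changed most. It was about 8-fold lower in depleted medium than in either medium with zinc, while HSCB, LYRM4, ISCU and ISCA2 were higher, and NFS1 and GLRX5 lower, by much smaller amounts. NFU1 did not pass the test in any comparison, and ISCA1 passed only against repleted medium. Levels are given as RPKM, read numbers corrected for the length of the gene and the size of the library, which allows levels of different genes to be set side by side. Changes are differences of group means on the log2(RPKM + 1) scale with the standard error (SE) and limma's p adjusted over all 15774 genes tested, called at 0.05. All 9 genes exceeded the filter of 1 RPKM in every library, the lowest value being 8.81 RPKM for BOLA3 in depleted replicate 2.

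Of the 9 genes, 4 rose and 3 fell in depleted against full medium, and 5 were higher and 3 lower in depleted against repleted medium. Over all genes tested, 60.9% were called in the first comparison (29.8% higher and 31.2% lower) and 60.7% in the second (29.5% higher and 31.2% lower). The 7 and 8 called members of 9 lie somewhat above these shares, a gap that was not tested and that 9 genes cannot settle. What sets the genes apart from one another is the size and direction of the change. The median change of the 9 was 0.05 in depleted against full medium, beside 0.00 over all genes tested, and 0.32 against repleted medium, beside -0.01. The middle gene was ISCA1 in the first and ISCA2 in the second. Genes were called in both directions in each comparison, so the medians do not show a shift of the whole set. ISCU (0.43 and 0.38), HSCB (0.69 and 0.52) and NFS1 (-0.27 and -0.20) had smaller changes against repleted medium. GLRX5 (-0.20 and -0.27), ISCA1 (0.05 and 0.32) and ISCA2 (0.25 and 0.32) had larger ones, and the other members differed little. The libraries of the 2 groups did not overlap for 7 of 9 genes (67.6% of all genes tested) and for 8 of 9 (65.2%). In repleted against full medium none of the 9 was called by limma, beside 0.0317% of all genes tested, and 1 of the 9, ISCA1, had an unadjusted p under 0.05, beside 7.76%. There the libraries of NFS1, GLRX5 and ISCA1 did not overlap, 3 of 9 beside 12.4%. Both depleted comparisons share the depleted libraries and are therefore not independent of each other.

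The libraries were of similar depth. From the steps between low RPKM values, depth was estimated at 16900000 to 23500000 reads per library, but only 56.8% to 62.8% of the values checked were whole reads within 0.1 read, so these are rough estimates. On that basis the lowest BOLA3 value rested on about 98.4 reads and every other member's value on at least 199.5 (counting error only). All 8 markers chosen for the line were detected, with a summed level of 874.6 to 886.7 RPKM in full, 850.1 to 871.7 in depleted and 854.4 to 881.8 in repleted libraries, whereas 9 markers of other lineages summed to 0.74 to 1.66 RPKM in full, 1.53 to 2.25 in depleted and 0.73 to 0.99 in repleted libraries, with HBB and INS listed at 0 throughout. Most of the summed level of the line's markers came from VIM. In depleted against full medium VIM rose from 576.7 to 665.4 RPKM (log2 0.21). NEFL (31.8 to 6.53 RPKM), PAX2 (3.29 to 0.60), KRT8, KRT18 and LIN28B fell, and NEFM and INA were not called. Thus 1 of 8 markers rose and 5 fell, beside 29.8% and 31.2% of all genes tested. The part of these changes in the results below was not tested. In whole-culture RNA, fewer cells of a kind and less RNA per cell cannot be told apart.

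Promoter windows of 4 genes are shown because BOLA3 had the largest fall and HSCB, LYRM4 and ISCU the largest rises. Each is the RefSeq window of 300 bases in build GRCh38.p14, from 250 before to 50 after the annotated start, 5′ to 3′ on the gene's strand, with matches to 7 motifs in capitals. They lie at chr2:74147863-74148162 (minus strand, BOLA3), chr22:28741789-28742088 (plus strand, HSCB, the first listed of several starts), chr6:5260901-5261200 (minus strand, LYRM4) and chr12:108562346-108562645 (plus strand, ISCU).
BOLA3: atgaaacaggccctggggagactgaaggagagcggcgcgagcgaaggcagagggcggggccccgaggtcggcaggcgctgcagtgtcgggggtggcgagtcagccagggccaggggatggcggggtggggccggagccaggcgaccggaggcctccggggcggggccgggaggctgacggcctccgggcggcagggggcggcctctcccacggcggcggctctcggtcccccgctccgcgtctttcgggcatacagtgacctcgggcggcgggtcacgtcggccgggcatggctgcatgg
HSCB: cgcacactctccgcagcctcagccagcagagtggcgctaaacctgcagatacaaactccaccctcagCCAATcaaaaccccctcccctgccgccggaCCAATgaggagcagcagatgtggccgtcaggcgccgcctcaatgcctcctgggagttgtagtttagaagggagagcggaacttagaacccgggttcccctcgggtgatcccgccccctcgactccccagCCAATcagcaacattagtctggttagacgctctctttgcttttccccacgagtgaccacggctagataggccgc
LYRM4: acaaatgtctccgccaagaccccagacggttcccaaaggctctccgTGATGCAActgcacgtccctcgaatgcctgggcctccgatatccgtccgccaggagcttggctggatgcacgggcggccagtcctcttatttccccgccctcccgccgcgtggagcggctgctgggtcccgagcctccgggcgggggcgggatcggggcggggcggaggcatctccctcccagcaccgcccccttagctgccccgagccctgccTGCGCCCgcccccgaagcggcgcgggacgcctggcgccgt
ISCU: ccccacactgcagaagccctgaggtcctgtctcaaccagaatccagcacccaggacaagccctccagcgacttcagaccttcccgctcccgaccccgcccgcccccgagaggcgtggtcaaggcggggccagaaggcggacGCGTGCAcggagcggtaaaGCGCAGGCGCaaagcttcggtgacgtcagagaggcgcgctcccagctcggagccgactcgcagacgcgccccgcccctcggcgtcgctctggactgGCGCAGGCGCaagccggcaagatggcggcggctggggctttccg

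The motifs were searched on both strands: the metal response element bound by the zinc sensor MTF1 in its forms TGCACNC and TGCGCNC, the ATF4 composite element TGATGNAA, the CLEAR element CACGTGAC, the ETS motif CCGGAAG, the NRF1 motif and the CCAAT box. The CLEAR element had no match in any member, and the ETS motif had matches in NFS1 alone. A match describes letters in a window and is not evidence of binding. The BOLA3 window held none of them and had the highest G and C content of the members' windows, 76.3%, beside a median of 58.7% over 34796 distinct windows. The HSCB window shown held the CCAAT box 3 times, a motif present in 34.6% of all windows. The LYRM4 window held TGATGCAA, a match to the ATF4 composite element (3.63% of all windows), starting 204 bases before the start site, and TGCGCCC, a match to the metal response element TGCGCNC (19.9%), starting 11 bases into the transcript. The ISCU window held GCGCAGGCGC, a match to the NRF1 motif (5.75% of all windows), at 90 bases before and again 7 bases into the transcript, and 1 match to TGCACNC (12.1%). A member was counted as having a motif if any of its windows matched, whereas the shares are of single windows. Of the 4 genes that rose in depleted against full medium, HSCB and ISCA2 had the CCAAT box, HSCB not in all of its windows. LYRM4 and ISCU had different forms of the metal response element, and no motif searched was present in all 4. GLRX5, which fell, and ISCA1, which was not called in that comparison, also had the CCAAT box. ISCA1 had the form TGCGCNC of the metal response element as well.

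Within the sulfur donor complex NFS1 fell and its partner LYRM4 rose, and the scaffold ISCU rose as well. ISCU (ENSG00000136003), the scaffold, had 52.4, 50.5 and 48.3 RPKM in full, 64.2, 70.9 and 69.5 in depleted and 51.5, 53.5 and 51.9 in repleted medium. Every depleted library was above every other library. ISCU rose 1.35-fold against full medium (log2 0.43, SE 0.05, limma adjusted p = 4.1e-05) and was 1.3-fold higher than in repleted medium (log2 0.38). NFS1 (ENSG00000244005), the desulfurase, had 30.9, 31.2 and 30.6 RPKM in full, 25.1, 25.5 and 25.8 in depleted and 30.1, 29.3 and 29.1 in repleted medium. Its depleted libraries were the 3 lowest, and the SD within a group was at most 0.556 RPKM. NFS1 fell by 0.27 on the log2 scale against full (SE 0.04, limma adjusted p = 0.000209) and by 0.20 against repleted medium (limma adjusted p = 0.00121). LYRM4 (ENSG00000214113), the partner that stabilises NFS1, had 20.6, 20.5 and 20.0 RPKM in full, 33.9, 30.5 and 32.2 in depleted and 21.6, 21.1 and 18.5 in repleted medium. The depleted libraries did not overlap with either other group. LYRM4 rose 1.58-fold against full medium (log2 0.64, SE 0.06, limma adjusted p = 2.29e-05), and its difference from repleted medium was of the same size (log2 0.64).

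**Figure D1:**
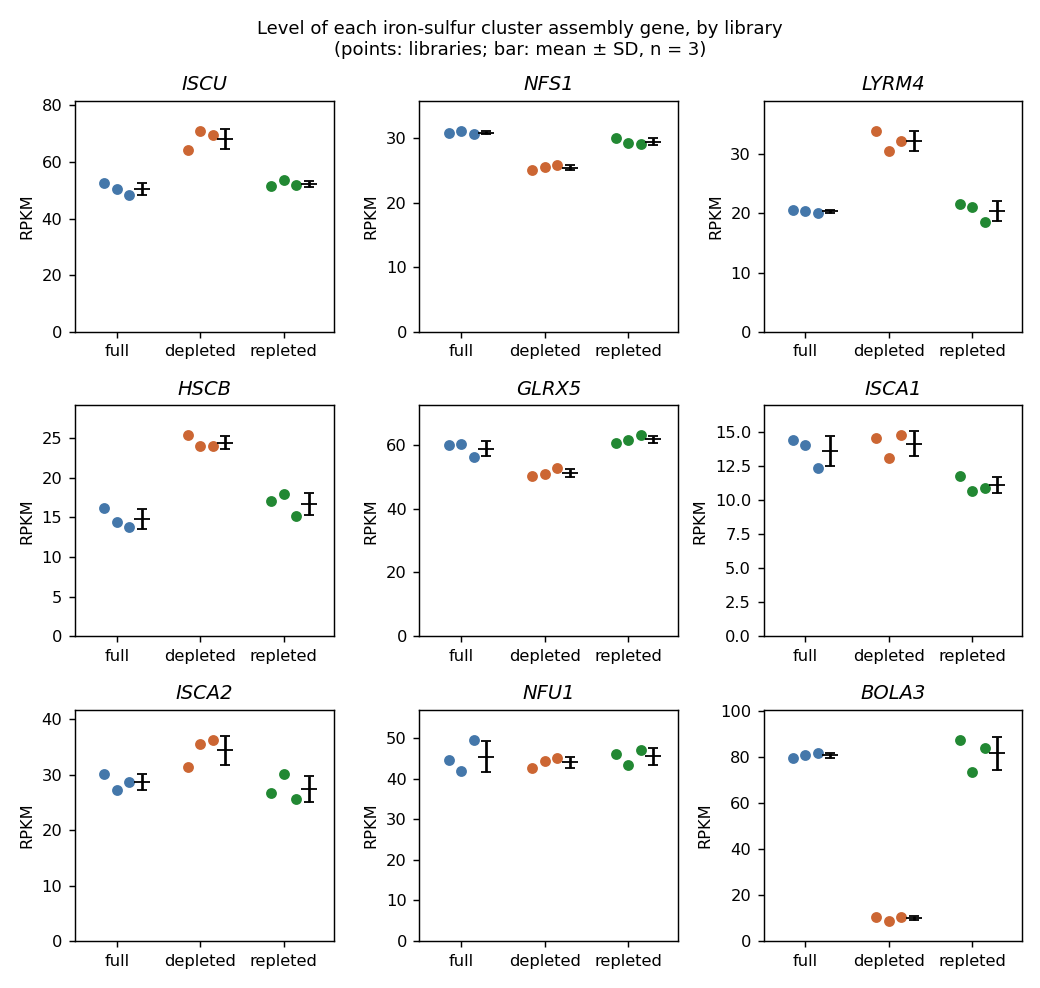
Level of each of the 9 genes in RPKM (y axis, from 0) in the full, depleted and repleted libraries (x axis); points are single libraries and the bar is the mean ± SD, n = 3 per group. BOLA3 lies between 8.81 and 10.6 RPKM in depleted and between 73.7 and 87.5 in all other libraries, while HSCB, LYRM4 and ISCU are highest in the depleted libraries.

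The transfer step showed a rise in the co-chaperone and a small fall in the glutaredoxin. HSCB (ENSG00000100209) had 16.1, 14.4 and 13.8 RPKM in full, 25.3, 23.98 and 23.9 in depleted and 17.1, 17.9 and 15.2 in repleted medium. The depleted libraries were the 3 highest, and those of full and repleted medium overlapped. HSCB rose 1.65-fold against full medium (log2 0.69, SE 0.08, limma adjusted p = 3.69e-05), the largest rise of the 9, and was 1.46-fold higher than in repleted medium (log2 0.52). GLRX5 (ENSG00000182512) had 59.9, 60.3 and 56.2 RPKM in full, 50.04, 50.8 and 52.6 in depleted and 60.7, 61.5 and 62.9 in repleted medium. The depleted libraries were again apart from both other groups, here the 3 lowest. GLRX5 fell by 0.20 on the log2 scale against full (SE 0.04, limma adjusted p = 0.0019) and by 0.27 against repleted medium (limma adjusted p = 0.000293).

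Changes in the late-acting pair ISCA1 and ISCA2 were small. ISCA2 (ENSG00000165898) had 30.1, 27.2 and 28.8 RPKM in full, 31.4, 35.6 and 36.3 in depleted and 26.6, 30.2 and 25.6 in repleted medium. Depleted replicate 1 lay just above the highest full library. ISCA2 rose by 0.25 against full medium (SE 0.08, limma adjusted p = 0.0154) and was higher by 0.32 than in repleted medium (limma adjusted p = 0.005). Against full medium ISCA2 no longer passed when 1 of 3 libraries was left out, with a limma adjusted p of 0.0572 for full replicate 2, 0.0534 for depleted replicate 2 and 0.0569 for depleted replicate 3. ISCA1 (ENSG00000135070) had 14.4, 14.1 and 12.4 RPKM in full, 14.5, 13.1 and 14.7 in depleted and 11.8, 10.6 and 10.9 in repleted medium. Here the full and depleted libraries overlapped and the repleted ones were the 3 lowest. ISCA1 differed from full medium by 0.05, with a 95% interval from -0.12 to 0.22, and was higher by 0.32 in depleted than in repleted medium (limma adjusted p = 0.00474). Its difference between repleted and full medium was -0.27 and did not pass (limma adjusted p = 0.474). The pseudogene ISCA1P1 was listed at 11.1 to 17.8 RPKM. Reads may be shared between the copies, which was not tested, and like levels do not show it. Summed over both rows, the level was 26.0 ± 0.992 RPKM in full, 29.6 ± 3.34 in depleted and 26.3 ± 2.6 in repleted medium (SD, n = 3). Depleted replicate 2 (25.8 RPKM) lay inside the range of the other groups. The rows differ in length (1738 nt for ISCA1 and 387 nt for ISCA1P1), so exchanged reads would not cancel in this sum.

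The targeting factors NFU1 and BOLA3 parted. NFU1 (ENSG00000169599) had 44.7, 42.0 and 49.6 RPKM in full, 42.7, 44.3 and 45.2 in depleted and 46.1, 43.3 and 47.2 in repleted medium, and all 3 groups overlapped. Its change was -0.04 against full medium, with a 95% interval from -0.18 to 0.10, and -0.05 against repleted medium (-0.19 to 0.09). BOLA3 (ENSG00000163170) had 79.8, 81.0 and 82.1 RPKM in full, 10.6, 8.81 and 10.4 in depleted and 87.5, 73.7 and 84.1 in repleted medium. With zinc present it was the highest of the 9 genes, and without zinc the lowest. BOLA3 fell 8.16-fold against full medium (log2 -2.91, SE 0.08, limma adjusted p = 6.3e-09) and was 8.24-fold lower than in repleted medium (log2 -2.92, SE 0.08, limma adjusted p = 6.03e-09). Of all 15774 genes tested, BOLA3 had the 15th lowest log2 change in depleted against full and the 19th lowest in depleted against repleted medium. Repleted and full medium differed by 0.01 for BOLA3, with a 95% interval from -0.16 to 0.18.

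The antisense gene BOLA3-AS1 (ENSG00000225439), named after BOLA3, also fell. It had 6.54, 6.71 and 6.9 RPKM in full, 2.51, 2.38 and 2.69 in depleted and 8.71, 6.03 and 5.3 in repleted medium. The depleted libraries were the 3 lowest, and the change was -1.13 against full (SE 0.14, limma adjusted p = 9.65e-05) and -1.10 against repleted medium. Whether reads were counted by strand is not given in the sources used here, so reads of BOLA3 and its antisense gene may be mixed. Other BolA genes had smaller changes. BOLA1, a mitochondrial family member, had 14.7 ± 1.41 RPKM in full and 17.1 ± 1.59 in depleted medium (log2 0.21, limma adjusted p = 0.0613). BOLA2 and BOLA2B, near-identical copies whose reads cannot be separated with certainty, had -0.40 and 0.44, both called. Their summed level was 150.3 ± 4.17 RPKM in full, 195.1 ± 6.93 in depleted and 148.2 ± 11.6 in repleted medium. The rows differ in length (1012 nt for BOLA2 and 406 nt for BOLA2B), so reads exchanged between them would not cancel in this sum.

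**Figure D2:**
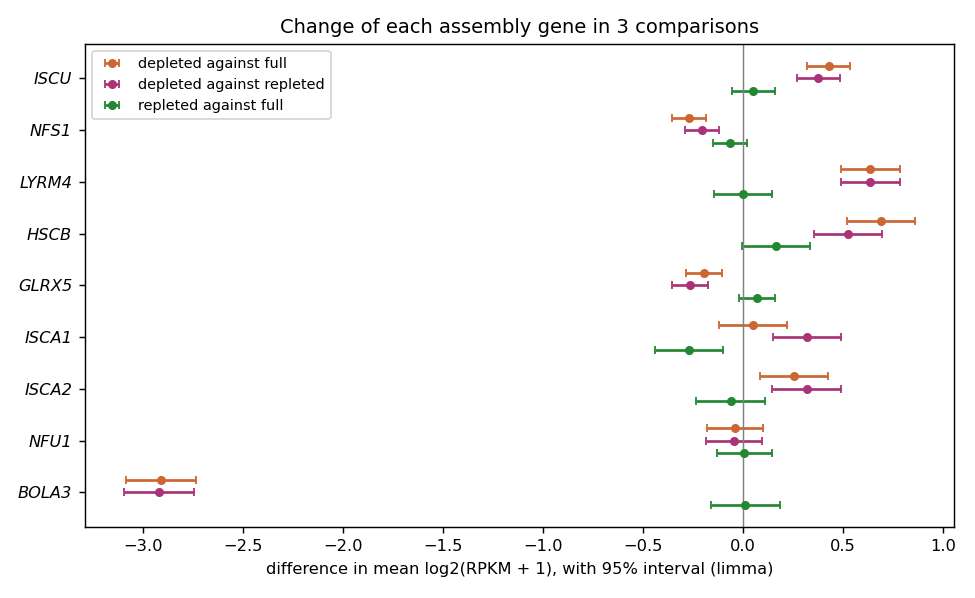
Change of each gene (y axis) as the difference of group means in log2(RPKM + 1) with its 95% interval from limma (x axis) for the 3 comparisons, n = 3 libraries per group. BOLA3 stands at -2.91 and -2.92 in the comparisons with depleted medium, and the other 8 genes lie between -0.27 and 0.69.

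The order of levels among the 9 genes differed between media with and without zinc. In full medium the order was BOLA3, GLRX5, ISCU, NFU1, NFS1, ISCA2, LYRM4, HSCB and ISCA1, from 80.9 ± 1.14 to 13.6 ± 1.08 RPKM, and repleted medium gave the same order. Neighbouring genes whose full libraries overlapped were NFU1 with ISCU, and HSCB with ISCA1. In repleted medium the libraries of NFS1 and ISCA2 overlapped, so their order is not resolved there. In depleted medium ISCU was highest (68.2 ± 3.53 RPKM), followed by GLRX5, NFU1, ISCA2, LYRM4, NFS1, HSCB, ISCA1 and BOLA3 (9.92 ± 0.968 RPKM). The depleted libraries of ISCA2 and LYRM4 overlapped, as did those of NFS1 and HSCB, so these orders are not resolved. Compared with full medium, BOLA3 moved from the first place to the last, and NFS1 fell below ISCA2 and LYRM4.

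Ratios of genes that work as partners were compared within libraries. The ratio of NFS1 to LYRM4 was 1.5 to 1.53 in full, 1.39 to 1.57 in repleted and 0.739 to 0.837 in depleted libraries, so that LYRM4 exceeded NFS1 only in the depleted ones. The ratio of NFS1 to ISCU was 0.589 to 0.634 in full, 0.547 to 0.585 in repleted and 0.36 to 0.391 in depleted libraries. HSCB to ISCU was 0.285 to 0.308 in full, 0.292 to 0.335 in repleted and 0.338 to 0.394 in depleted libraries, a small gap beside the spread. ISCA1 to ISCA2 overlapped between all 3 groups (0.353 to 0.517). NFU1 to BOLA3 was 0.518 to 0.604 in full and 0.527 to 0.588 in repleted libraries, but 4.04 to 5.03 in depleted ones. The smallest two-sided exact permutation p that 3 against 3 libraries allow is 0.1. This value was reached in both depleted comparisons by all these ratios but ISCA1 to ISCA2, and in repleted against full medium by NFS1 to ISCU alone. Adjusted over 15 tests it came to 0.167, so no ratio passed.

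**Figure D3:**
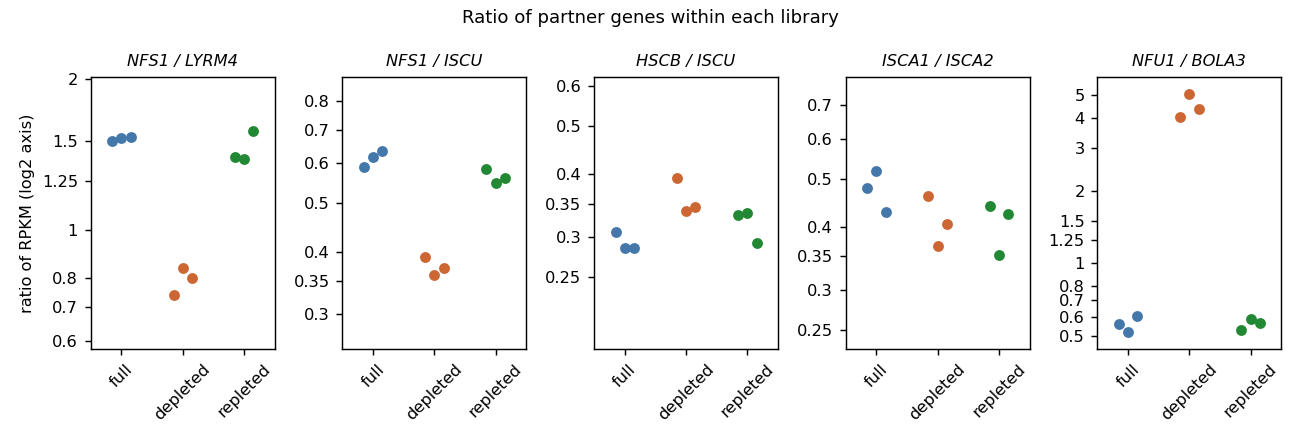
Ratio of RPKM of partner genes within each library (y axis, log2 scale with its own range in each panel) for full, depleted and repleted medium (x axis); each point is 1 library. NFU1 to BOLA3 is 4.04 to 5.03 in the depleted libraries and at most 0.604 in the others, and NFS1 to LYRM4 drops below 1 in the depleted libraries.

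The remaining mitochondrial assembly genes were mixed as well. Of 10 tested, 3 rose and 2 fell in depleted against full medium (median log2 0.11), beside 29.8% and 31.2% of all genes tested. HSPA9, the chaperone that HSCB recruits, fell from 323.4 ± 10.1 to 211.0 ± 4.52 RPKM (log2 -0.61), opposite in direction to HSCB. NDUFAB1, the acyl carrier protein bound by LYRM4, fell from 132.4 ± 2.98 to 94.0 ± 2.02 RPKM (log2 -0.49), opposite to LYRM4. The ferredoxin FDX1L, which supplies electrons for assembly, rose from 23.7 ± 1.39 to 35.2 ± 1.54 RPKM (log2 0.55), and FDXR, the reductase that passes electrons to ferredoxin, from 19.9 ± 0.465 to 29.7 ± 0.523 (log2 0.55).

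Of 12 cytosolic assembly genes 5 rose and 4 fell (median log2 0.03), beside 29.8% and 31.2% of all genes tested. FAM96A, a targeting factor of this machinery, fell from 53.0 ± 3.35 to 25.0 ± 0.37 RPKM (log2 -1.05), and MMS19, an adaptor for DNA enzymes, from 37.6 ± 1.02 to 23.1 ± 2.94 (log2 -0.69). The scaffold gene NUBP1 rose from 17.5 ± 1.29 to 30.6 ± 2.1 RPKM (log2 0.77), and NARFL from 13.5 ± 0.912 to 24.1 ± 1.04 (log2 0.80).

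Genes of proteins that carry the clusters moved in both directions at the RNA level. Of 15 genes of mitochondrial iron-sulfur proteins 6 rose and 6 fell (median log2 -0.02), beside 29.8% and 31.2% of all genes tested. LIAS, lipoate synthase and a recipient served by NFU1 and BOLA3, had 9.2, 8.8 and 7.71 RPKM in full, 24.1, 20.9 and 22.9 in depleted and 8.17, 8.61 and 8.69 in repleted medium. It rose 2.64-fold against full medium (log2 1.31, SE 0.08, limma adjusted p = 6.26e-07), the opposite direction to BOLA3. ETFDH, which passes electrons from fatty acid oxidation to ubiquinone, rose by 0.79, while the complex I subunit NDUFS7 fell by 0.80 and CISD3 by 0.71. Of 22 genes of cytosolic and nuclear iron-sulfur proteins 8 rose and 5 fell (median log2 0.09), beside the same shares. DPH1, of diphthamide synthesis, fell 4.26-fold from 33.7 ± 1.76 RPKM, and the nuclease EXO5 fell 5.04-fold from 10.9 ± 1.68 RPKM. CISD2 and the DNA polymerase subunit POLE rose by 0.59 and 0.53. Of 6 genes of lipoylated proteins and lipoate transfer 1 rose and 2 fell (median log2 -0.16), again beside these shares. DBT, of branched-chain amino acid breakdown, rose from 7.9 ± 0.476 to 17.7 ± 0.412 RPKM (log2 1.07), DLAT of pyruvate dehydrogenase fell by 0.47 and GCSH of glycine cleavage by 0.22, and LIPT1 had -0.22 (limma adjusted p = 0.108). The median over all genes tested was 0.00. None of these 65 genes was called by limma in repleted against full medium, beside 0.0317% of all genes tested.

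**Figure D4:**
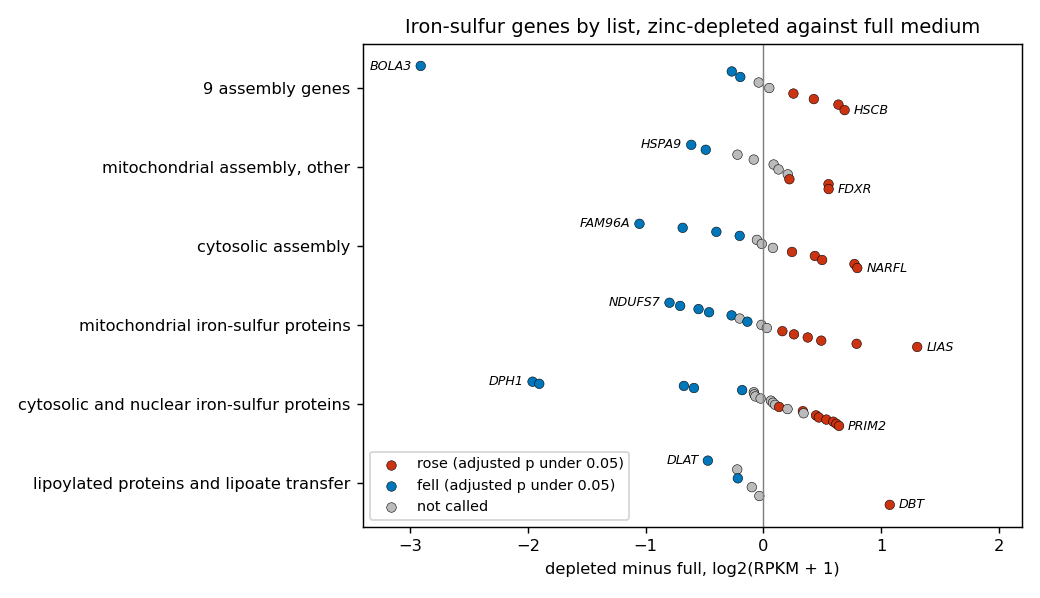
Change of each gene in depleted against full medium (x axis, log2(RPKM + 1)) by list (y axis), with genes that rose in red, fell in blue and were not called in grey; the lowest and the highest of each list are named, n = 3 libraries per group. BOLA3 at -2.91 has the lowest value shown and LIAS at 1.31 the highest.

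Genes whose pattern over the 9 libraries was most like that of the genes with the largest changes were found by the root mean square difference of log2 values, each gene centred on its mean in full medium. For BOLA3 these were TMEM109 (difference 0.06), TTC26 (0.12) and RASL10B (0.12). TMEM109 had 43.9 ± 1.02 RPKM in full, 4.82 ± 0.535 in depleted and 44.7 ± 1.8 in repleted medium. For HSCB they were JMJD6, SIAH1 and TSNARE1 (0.07 each), of which JMJD6 had 17.9 ± 1.2, 30.8 ± 2.13 and 18.9 ± 1.67 RPKM in the same order. The likeness rests on 3 group means and on these 9 libraries.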

How the data were processed

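Polyadenylated RNA of 9 libraries was sequenced from single ends. The authors deposited 1 table of log2 of RPKM plus 1 per Ensembl gene, with 57766 genes, 20320 blank rows and 0 columns of unknown sample. The submitters' processing notes name bedtools 2.25.0.3, BWA 0.7.12-r1039, RSEM 1.2.6 and Bowtie 1.0.1 without saying what each did, and the builds GRCh37 and hg19. When converted back, 100% of the values lay on steps of 0.01 RPKM (tolerance 0.0002). Read counts were not used. Whether libraries were scaled further is not stated.

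The log2 values were fitted with limma 3.58.1 in R 4.3.3, with a trend of variance on mean and 1 mean per group over all 9 libraries. Genes reaching 1 RPKM in 3 or more libraries, 15774 in all, entered the test, with Benjamini-Hochberg adjustment over all of them and a threshold of 0.05. The model was also run on simulated data in which only a small share of genes was shifted, unlike these data, and no result here rests on that run. Partner ratios were tested by exact permutation of libraries, two-sided. The members, lists, partner pairs and motifs were chosen with earlier results of these data known. Named genes are the 9 members, up to 4 genes of each of 5 other lists by lowest p for depleted against full medium, genes named after a member, and the 3 nearest patterns for the 2 members with the largest change. BOLA1, the summed copies, the values printed for the line's markers and the chromosomal neighbours were named after their values were seen. Promoter windows are from RefSeq in GRCh38.p14, for which all 9 members matched by symbol, with 12 windows. Since the values rest on hg19, no other coordinates are given. Protein sequences were not used here, and 2 genes of the other mitochondrial assembly list are not reported here. Alternatives were a pseudocount of 0.1, no filter, a filter on the mean, only the 6 libraries compared, the replicate number as a block, median centring, quantile normalization and each library left out in turn. Python 3.11.15 and matplotlib 3.10.9 were used for figures.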

Additional observations from a re-analysis of the deposited data

How the results depend on the processing

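Over 16 alternatives, the calls of BOLA3, HSCB, LYRM4, ISCU, NFS1 and GLRX5 in both depleted comparisons, and of ISCA1 and ISCA2 in depleted against repleted medium, kept their direction and passed. BOLA3 ranged from -3.02 to -2.84 against full and from -3.03 to -2.85 against repleted medium. In depleted against full medium ISCA2 ranged from 0.217 to 0.317 with a library left out, and its loss without 1 of 3 libraries is given with its values. Members that were not called changed sign: ISCA1 ranged from -0.013 to 0.101 and NFU1 from -0.0941 to 0.0233 with a library left out, and after median centring NFU1 was 0.00601 against full and 0.00345 against repleted medium. In repleted against full medium, with a library left out, LYRM4 ranged from -0.0401 to 0.0661 (0.00048 after quantile normalization), NFU1 from -0.0478 to 0.0696 and BOLA3 from -0.0396 to 0.0834. There too, NDUFAB1 ranged from -0.0055 to 0.0425, FDXR from -0.019 to 0.166, FAM96A from -0.0921 to 0.0022, LIAS from -0.0757 to 0.0383, DPH1 from -0.0143 to 0.0528 and GCSH from -0.0617 to 0.0227. The log2 ratio of NFU1 to BOLA3 in repleted against full medium ranged from -0.0601 to 0.0503, and that of ISCA1 to ISCA2 in depleted against repleted medium from -0.0812 to 0.099.

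In repleted against full medium 5 genes were called, 0 higher and 5 lower. There were 3 with a pseudocount of 0.1, 2 without a filter, 2 with only the 6 libraries compared and 2 with the replicate block, and the same counts were lower. With a library left out the count was 1 to 9, with 0 to 3 higher and 1 to 6 lower. It was 9 without full replicate 1, 1 without full replicate 3 or repleted replicate 3, 2 without full replicate 2 or depleted replicate 2, 3 without depleted replicate 3, repleted replicate 1 or repleted replicate 2, and 6 without depleted replicate 1. The cause was not tested, and none of the 9 members was called in any of them. With the replicate number as a block, BOLA3 stayed at -2.91 and 7 and 8 members were called, as without it, and 9511 and 9472 genes were called against 9611 and 9574. Residuals of libraries with the same number had correlations of -0.0144 to 0.0726, and not every library correlated best with its own number, so the numbers were not taken as pairs. The depth of single values is known only as an estimate.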

Other observations

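The nearest protein-coding gene on each side of BOLA3 in the RefSeq order was not called lower, unlike its antisense gene BOLA3-AS1. MOB1A, the next protein-coding gene on 1 side and an activator of kinases of the Hippo pathway, rose from 47.2 to 73.2 RPKM in depleted against full medium (log2 0.63, SE 0.06, limma adjusted p = 1.33e-05). TET3, a DNA demethylase gene whose annotation overlaps that of BOLA3 in GRCh38.p14, had 4.48 RPKM in full and 5.09 in depleted medium (log2 0.15, limma adjusted p = 0.14). NFS1 and HSCB each have a neighbour that moved the other way. ROMO1, a small mitochondrial protein gene beside NFS1, rose from 214.6 to 267.2 RPKM (log2 0.31), while RBM12 on its other side fell from 52.9 to 40.6 RPKM. CHEK2, the checkpoint kinase gene beside HSCB, fell from 23.9 to 18.8 RPKM (log2 -0.33). RPP40, an RNase P subunit gene before LYRM4, rose by 0.70, in the same direction as LYRM4. CCDC117, on the other side of HSCB, fell (log2 -0.16). Called neighbours of other members went either way. NPC2 beside ISCA2 rose by 0.38 and GFPT1 beside NFU1 by 0.27. LTBP2, on the other side of ISCA2, fell by 0.81 and SYNE3 beside GLRX5 by 0.75, both from low levels (2.18 and 1.12 RPKM in full medium). Over all genes tested 60.9% were called in this comparison. These neighbours were named after their values were seen.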
